A study of Mus musculus with 12 samples.

Results

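Messenger RNA of 10 genes of MHC class I antigen presentation was followed through 12 libraries labelled as sorted mouse cortical neurons. The genes were H2-D1, H2-K1, H2-T23, B2m, Tap1, Tap2, Tapbp, Psmb8, Psmb9 and Nlrc5, and they were taken by symbol from a deposited table of 23253 genes. All 10 were in the table, and all 10 were among the 17909 genes left after a filter on low counts. On GRCm38.p6, 8 of them lie on chromosome 17 between the start of Tapbp at 33919478 and the end of H2-T23 at 36032701, where the mouse MHC is, with B2m on chromosome 2 and Nlrc5 on chromosome 8.

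MHC class I molecules show peptides from inside a cell to CD8 T cells. Proteasomes cut proteins into peptides, the TAP transporter carries the peptides into the endoplasmic reticulum, and tapasin helps load them onto a heavy chain paired with beta-2 microglobulin. Interferons raise many genes of the pathway in many cell types, and neurons usually carry little class I at the surface, although class I molecules have also been given roles at synapses.

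Each of 4 groups had 3 libraries from C57BL/6 mice. The adult control group had no stroke. The stroke group was adult and had a photothrombotic stroke, made by giving rose bengal, a light-activated dye, and lighting the brain through the exposed skull for 15 min, which left a lesion of 2 mm across. Another adult group had the same stroke and was labelled as given siRNA against GDF10, a TGF-beta family ligand whose part in axonal sprouting the series asks about. The last group was labelled P4 animal control. The growth label calls all mice adult, and no label explains P4, gives the time from stroke to sorting, or ties the 3 libraries of a group to separate animals. The p-values below therefore measure only the spread between these libraries, which may be technical. The authors' comparison columns name the siRNA group by GDF10 without the siRNA, so it is called siRNA-labelled stroke here.

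Total counts ran from 10517638 in adult control 3 to 48633350 in P4 4. The labels number the libraries 1 to 3 in adult control and in siRNA-labelled stroke, and 4 to 6 in the other two groups, so a batch that follows the numbers cannot be told apart from the group in stroke against adult control, in siRNA-labelled stroke against stroke, in P4 against adult control and in siRNA-labelled stroke against P4. Rn45s, the precursor of ribosomal RNA, held over 1% of counts in adult control 2, in all 3 stroke libraries and in siRNA-labelled stroke 3. The libraries also held markers of other cells. The 12 oligodendrocyte markers together took 3.93 to 9.44% of counts in adult control, 5.28 to 6.54% in stroke and 6.61 to 10.6% in siRNA-labelled stroke, above the 0.164 to 0.642% of 15 pan-neuronal markers in the same 9 libraries. In P4 the order was the other way, with 0.0118 to 0.0317% for oligodendrocyte and 0.621 to 0.941% for pan-neuronal markers. All 12 oligodendrocyte, 15 neuronal and 16 microglia and macrophage markers had counts in every group, and the part of each cell type in the class I values was not tested. In bulk libraries, fewer cells of a type and less RNA per cell cannot be told apart.

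The DNA just before the start sites is shown for H2-D1, H2-K1 and B2m. These were the members that passed the test described below as higher in siRNA-labelled stroke than in adult control. The shared stretch between Tap1 and Psmb9 is shown because those neighbours point away from each other and share it. Sequences are from RefSeq on GRCm38.p6. Each is written 5′ to 3′ along the gene's strand, and the last is along the strand of Tap1. H2-D1 lies at chr17:35262844-35263093 on the plus strand, H2-K1 at chr17:34000348-34000597 on the minus strand, B2m at chr2:122147437-122147686 on the plus strand, and the Tap1 and Psmb9 stretch at chr17:34187331-34187555. RefSeq gives H2-K1 more than 1 start site. The most upstream in the promoter table was used, and since the annotated gene reaches 34000619, its 250 bases lie inside the gene's outermost bounds and its distances hold for that start alone. Capitals mark matches to the short motifs named after the sequences, on either strand.
H2-D1: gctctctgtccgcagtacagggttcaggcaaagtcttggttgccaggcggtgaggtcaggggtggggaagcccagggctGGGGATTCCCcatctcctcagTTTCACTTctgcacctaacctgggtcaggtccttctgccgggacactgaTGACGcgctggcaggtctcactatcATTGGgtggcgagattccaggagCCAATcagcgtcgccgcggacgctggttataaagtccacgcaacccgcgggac
H2-K1: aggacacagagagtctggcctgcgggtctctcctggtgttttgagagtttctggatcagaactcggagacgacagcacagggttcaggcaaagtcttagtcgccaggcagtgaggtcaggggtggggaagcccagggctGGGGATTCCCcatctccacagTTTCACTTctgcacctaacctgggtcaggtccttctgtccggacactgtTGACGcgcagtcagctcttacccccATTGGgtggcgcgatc
B2m: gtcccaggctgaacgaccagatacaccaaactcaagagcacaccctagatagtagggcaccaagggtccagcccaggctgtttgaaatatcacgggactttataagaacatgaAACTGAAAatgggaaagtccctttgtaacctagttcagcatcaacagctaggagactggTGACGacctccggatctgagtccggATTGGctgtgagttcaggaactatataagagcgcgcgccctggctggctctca
Tap1-Psmb9: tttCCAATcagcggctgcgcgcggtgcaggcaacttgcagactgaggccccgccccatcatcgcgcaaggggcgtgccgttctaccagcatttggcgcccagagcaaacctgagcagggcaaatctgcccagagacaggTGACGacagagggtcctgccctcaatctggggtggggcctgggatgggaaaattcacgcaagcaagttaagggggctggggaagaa

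The search covered the 250 bases before the start site and both strands, and no match overlapped another. AANNGAAA, the core read by interferon regulatory factors, was in 4 of 8 members' promoters and in 21.3% of 32851 promoters. It stood 150 bases before the start of H2-D1 and 90 before that of H2-K1, in both as TTTCACTT on the gene's strand, and 137 before that of B2m as AACTGAAA. The kappaB motif, read by NF-kappaB, was in H2-D1 and H2-K1, both as GGGGATTCCC, and in 1.53% of all promoters. TGACG, a short motif of the kind read by CREB family factors, was in 5 of the 8 promoters and in 17.8% of all, and CCAAT, read by the factor NF-Y, was in 7 of the 8 and in 33.8% of all. For TGACG and CCAAT, the matches of Tap1 and Psmb9 are the same bases of their shared stretch, counted once for each gene. H2-D1 and H2-K1 matched at 87.4% of 190 aligned promoter bases. A match is only these letters in this window.

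H2-D1 and H2-K1, the classical heavy chains of C57BL/6 mice, were higher in stroke than in adult control. Levels are CPM, counts scaled to library size with TMM factors. H2-D1 read 14.6, 55.1 and 11 CPM in adult control 1, 2 and 3, and 229, 322 and 294 CPM in stroke 4, 5 and 6. The lowest stroke library was well above the highest control library. Adult control 2 was the highest control for every member but B2m and Nlrc5. It alone among the controls had Rn45s above 1% of counts, as all 3 stroke libraries did. H2-D1 rose by 3.38 ± 0.55 on the log2 scale (adjusted p = 0.0114, edgeR's quasi-likelihood test with Benjamini-Hochberg adjustment over all genes tested, used throughout). The ± after a fold change is an approximate standard error. H2-K1 read 23.6, 58.8 and 17.2 CPM in adult control and 138, 183 and 163 CPM in stroke. Its groups did not overlap either, and it rose by 2.28 ± 0.44 (edgeR, adjusted p = 0.0287). These were the 2 members called higher of 10, in a comparison where 0.486% of all genes tested were called higher. Leaving out adult control 1 ended both calls (edgeR, adjusted p = 0.0781 for H2-D1 and 0.133 for H2-K1), and H2-K1 stayed called in 1 of 6 such fits, the one without adult control 2. With Rn45s class as a term, H2-D1 changed by 2.77 (edgeR, adjusted p = 0.0242) and H2-K1 by 1.83 (edgeR, adjusted p = 0.167).

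H2-T23, which encodes the nonclassical heavy chain Qa-1, had 0.278, 8.6 and 2.62 CPM in adult control and 29, 33.5 and 18.9 CPM in stroke. The groups did not overlap, but the control libraries were far apart, and the difference of 2.81 ± 0.86 did not pass (edgeR, adjusted p = 0.154). B2m, the light chain common to all class I molecules, was the most abundant member per kilobase of exon in every group. It had 222, 225 and 436 CPM in adult control and 1680, 1680 and 1920 CPM in stroke. The stroke libraries were close together and above all controls, and the difference of 2.58 ± 0.63 did not pass (edgeR, adjusted p = 0.0827). Over the adult control libraries the level per kilobase was 342 ± 143 CPM for B2m (SD, n = 3), 20.1 ± 13.5 for H2-K1 and 12.8 ± 11.6 for H2-D1, the last pair within their spread. In stroke it was 2050 ± 161 CPM per kilobase for B2m, 134 ± 22.7 for H2-D1 and 97.5 ± 13.6 for H2-K1. Below them in stroke came H2-T23 (18.4 ± 5.08 CPM per kilobase), Tapbp (9.5 ± 2.93), Psmb8 (6.11 ± 1.17), Tap1 (5.24 ± 1.6), Psmb9 (3.93 ± 1.46), Nlrc5 (3.45 ± 0.435) and Tap2 (1.03 ± 0.0668). From Tapbp to Nlrc5 the SD ranges of neighbours overlapped, while Tap2 stood apart at the bottom. In P4 the order began with B2m at 59.9 ± 64 CPM per kilobase, H2-D1 at 8.69 ± 2.93, H2-K1 at 1.34 ± 0.427 and Tapbp at 1.27 ± 0.238, the last pair again within their spread.

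**Figure D1:**
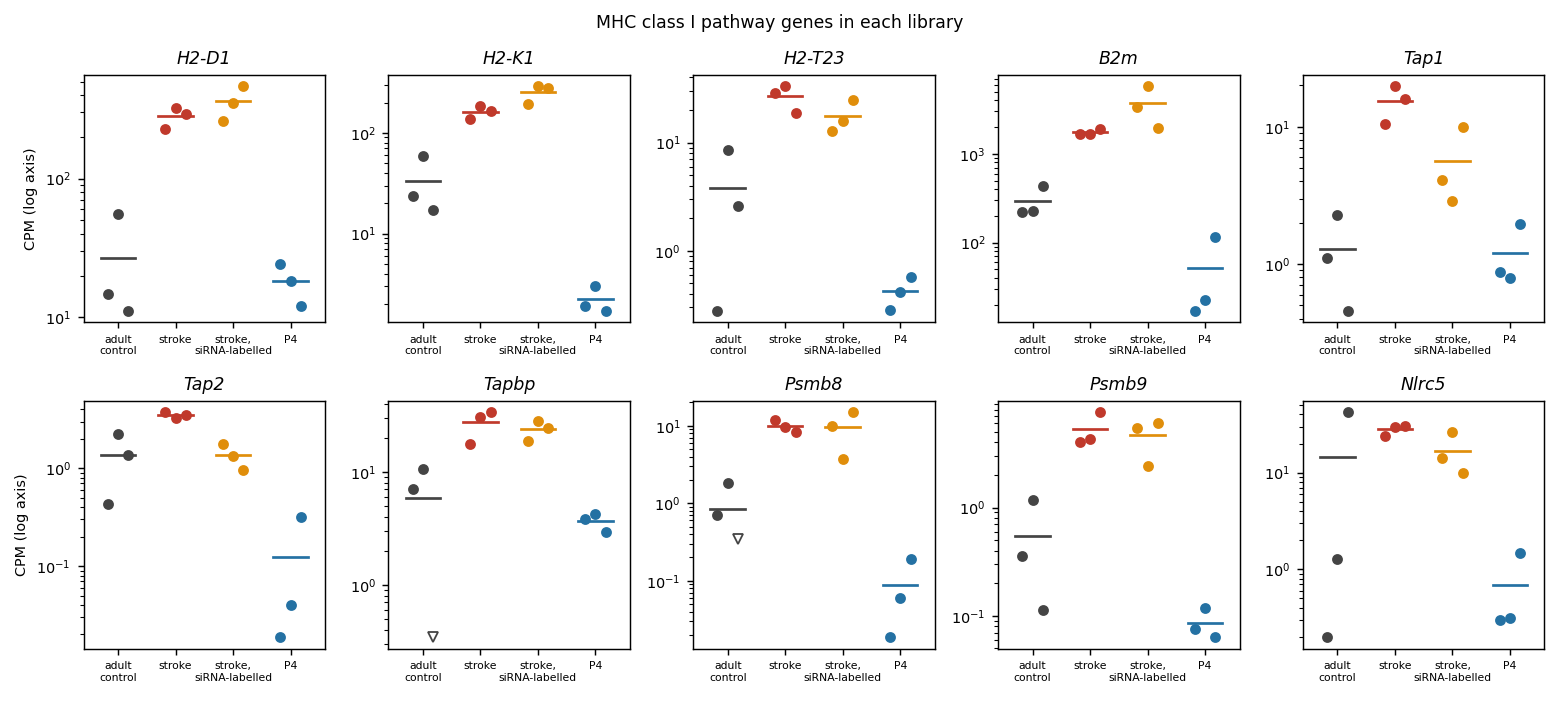
CPM of each member on a log axis, with 1 point per library, in replicate order within a group, and a bar at the group mean of 3 libraries. Open triangles stand for 0 counts and are drawn at the level of 3 counts. Stroke lies above adult control without overlap for 9 of the 10 genes, and the exception is Nlrc5, where adult control 3 is the highest of all libraries.

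The transporter and loading genes were less abundant. Tap1, a subunit of the TAP transporter, had 1.11, 2.29 and 0.456 CPM in adult control, the last from 4 counts, and 10.5, 19.9 and 16 CPM in stroke. Stroke was higher in 3 of 3 libraries, by 3.55 ± 0.83, the widest difference among the members, but it did not pass (edgeR, adjusted p = 0.0715). Tap2, the partner subunit, had 0.436, 2.26 and 1.37 CPM in adult control and 3.76, 3.3 and 3.53 CPM in stroke. The even stroke levels lay above all controls, and the difference was 1.38 ± 1.17 (edgeR, adjusted p = 0.591). Tapbp, which encodes tapasin, had 7.1, 10.6 and 0 CPM in adult control and 17.9, 30.7 and 34 CPM in stroke. Adult control 3 had no count of Tapbp in its 10517638, where 3 counts would be 0.342 CPM, against 179 and 425 counts in the other two controls. The difference of 2.21 ± 0.94 did not pass (edgeR, adjusted p = 0.272).

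Psmb8 and Psmb9 encode inducible catalytic subunits that take the places of Psmb5 and Psmb6 in the immunoproteasome. Psmb8 had 0.714, 1.81 and 0 CPM in adult control and 12, 9.61 and 8.25 CPM in stroke. Psmb9 had 0.357, 1.17 and 0.114 CPM in adult control and 4.04, 4.32 and 7.6 CPM in stroke. Both were higher in 3 of 3 stroke libraries, and neither passed, with 3.49 ± 1.1 for Psmb8 (edgeR, adjusted p = 0.16) and 3.22 ± 1.02 for Psmb9 (edgeR, adjusted p = 0.163). Beside their constitutive counterparts the same order held for this pair of genes. The count ratio of Psmb8 to Psmb5 was 0.0741, 0.0823 and 0 in adult control and 0.426, 0.56 and 0.676 in stroke. That of Psmb9 to Psmb6 was 0.022, 0.0299 and 0.00446 in adult control and 0.105, 0.126 and 0.435 in stroke. Psmb10, the other inducible catalytic subunit, is no member. Its own level was also higher in 3 of 3 stroke libraries, and it was not called (1.69 ± 0.79, edgeR, adjusted p = 0.316). Its count ratio to Psmb7 was 0.0437, 0.0643 and 0.226 in adult control and 0.0727, 0.0693 and 0.124 in stroke. That ratio overlapped, with a lower mean in stroke, through adult control 3, at 14 counts of Psmb10 and 62 of Psmb7. Adult control 1 and 2 lay below every stroke library. The groups did not overlap for the Psmb8 and Psmb9 ratios, and an exact two-sided permutation test of 3 against 3 libraries cannot give a p below 0.1. Among 9 constitutive proteasome subunits 0 were called by edgeR, with 1 at an unadjusted p under 0.05, and Psmb2, a beta subunit, had the smallest p (1.47 ± 0.55, edgeR, adjusted p = 0.22).

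Nlrc5, a coactivator of class I gene transcription, differed from the other members in the adult controls. It had 0.198, 1.29 and 42.3 CPM there and 24, 29.5 and 30.6 CPM in stroke. Adult control 3 alone, the shallowest library, was above every stroke library, while the other two controls were far below. The difference was 0.96 ± 1.19 (edgeR, adjusted p = 0.72). Without adult control 3 it was 5.19 (edgeR, adjusted p = 0.0178), and in the fits without each of the other 5 libraries of these groups it was not called.

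**Figure D2:**
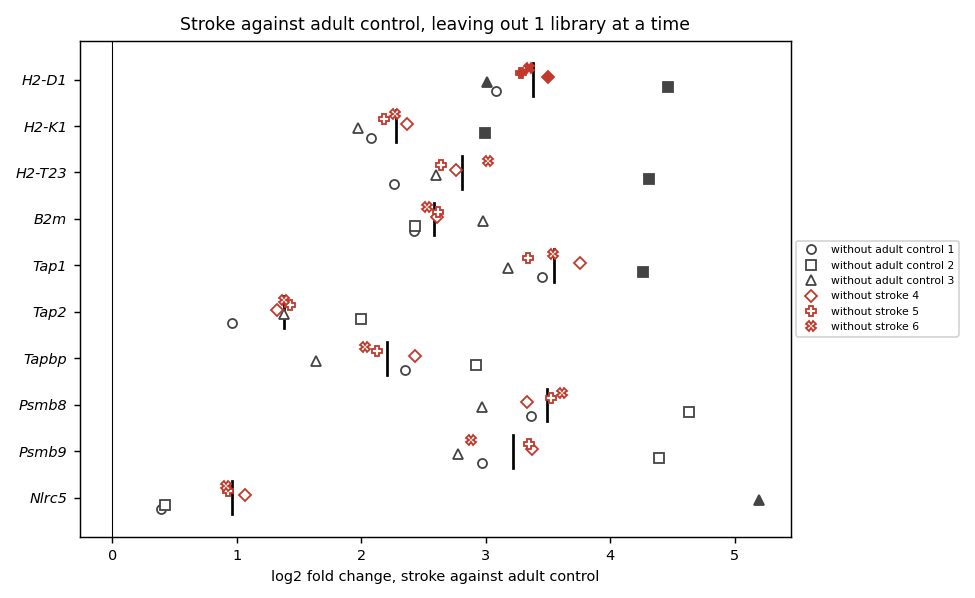
Log2 fold change of each member in stroke against adult control with 1 library left out at a time; the black tick is the value with all libraries, and filled symbols passed an adjusted p of 0.05. Removing adult control 2 gave the most calls, 4, removing adult control 1 gave 0, and Nlrc5 moved between 0.39 and 5.19.

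Seen as a group, all 10 members were above 0 in stroke against adult control, with a median log2 fold change of 2.69 beside -0.08 over all genes tested. The libraries did not overlap, with stroke higher, for 9 members, beside 11.0% of all genes tested. The authors' deposited table gave a false discovery rate under 0.05 to 6 members in this comparison, H2-D1, H2-K1, H2-T23, B2m, Tap1 and Psmb8, all higher. The 16 microglia and macrophage markers took 0.0799 to 0.14% of counts in adult control and 0.0479 to 0.16% in stroke. Of these, 0 were called higher by edgeR. Of 12 oligodendrocyte markers 1 was called higher, Cldn11 (2.23 ± 0.34, edgeR, adjusted p = 0.00737). The 8 oligodendrocyte precursor markers took 0.0645 to 0.309% in adult control and 0.266 to 0.371% in stroke. Among them 1 was called higher, Bmp4 (2.5 ± 0.45, edgeR, adjusted p = 0.0208), and without overlap 5 were higher and 1 lower. The 11 measured monocyte and neutrophil markers took 0.00114 to 0.0131% in adult control and 0.0256 to 0.0488% in stroke. These counts were mostly Lyz2, and of 3 of these markers left after the filter 0 were called. Astrocyte markers, mostly Slc1a2, went from 0.428 to 0.641% in adult control to 0.0631 to 0.0902% in stroke. Of 11 tested, 6 were called lower and 0 higher, with 8 below 0 and 3 above. Gfap was higher without overlap (2.71 ± 0.68, edgeR, adjusted p = 0.0919). The part of all these cell types in the class I values was not tested.

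Of the genes around the pathway, transcription factors were the list with calls in stroke against adult control. Of 16 that act on MHC genes, 3 rose and 0 fell. Stat2 had 34.5, 25.9 and 22.8 CPM in adult control and 92.7, 117 and 105 CPM in stroke. Its groups were far apart beside their spread, and it rose by 1.92 ± 0.36 (edgeR, adjusted p = 0.0243). Irf9 had 4.88, 7.48 and 14.6 CPM in adult control and 67, 47.1 and 73.8 CPM in stroke, again without overlap. Irf9, the partner of Stat2 in the complex formed after type I interferon, rose by 2.81 ± 0.54 (edgeR, adjusted p = 0.0287).

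No gene of the other pathway lists was called in stroke against adult control. Among 9 tested further class I heavy chains and relatives, Cd1d1, which presents lipids, had the smallest p (2.58 ± 1.22, edgeR, adjusted p = 0.319). Of 12 loading and trimming genes it was Ide, a cytosolic peptidase (1.15 ± 0.29, edgeR, adjusted p = 0.0939), and of 5 further inducible proteasome genes it was Psme1, an activator subunit (2.12 ± 0.53, edgeR, adjusted p = 0.0912). Of 4 interferon receptor genes it was Ifnar2 (1.43 ± 0.43, edgeR, adjusted p = 0.153). Among 8 MHC class II genes it was H2-Ob, a chaperone chain that was lower in stroke (-5.49 ± 1.59, edgeR, adjusted p = 0.135), and among 6 tested receptors and coreceptors of class I it was Pirb, an inhibitory receptor (2.55 ± 0.95, edgeR, adjusted p = 0.22).

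The siRNA-labelled stroke group also stood above adult control in its heavy chains and B2m. H2-D1 had 262, 353 and 467 CPM in siRNA-labelled stroke 1, 2 and 3, and H2-K1 had 192, 293 and 280 CPM. B2m had 3340, 5840 and 1930 CPM there, with siRNA-labelled stroke 2 the highest of all 12 libraries. All of these lay above every adult control library. H2-D1 rose by 3.74 ± 0.56 (edgeR, adjusted p = 0.0199), H2-K1 by 2.94 ± 0.45 (edgeR, adjusted p = 0.0212) and B2m by 3.65 ± 0.66 (edgeR, adjusted p = 0.0498). These 3 of 10 were called where 0.0838% of all genes tested were called higher, and 8 of 10 members did not overlap with siRNA-labelled stroke higher, beside 6.35% of all genes. Microglia and macrophage markers took 0.223 to 0.442% of counts in siRNA-labelled stroke, all above the 0.0799 to 0.14% in adult control. Of the 16, edgeR called 0, while 11 were higher without overlap and 9 had an unadjusted p under 0.05; their part in the class I values was not tested. The B2m call was lost in each of the 6 fits that left out a library, and no member was called without adult control 1, without siRNA-labelled stroke 2 or without siRNA-labelled stroke 3. Within the libraries where Rn45s was not above 1%, H2-D1 was 262 and 353 CPM in siRNA-labelled stroke 1 and 2 against 14.6 and 11 CPM in adult control 1 and 3.

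The other members were not called in siRNA-labelled stroke against adult control. H2-T23 had 12.7, 15.9 and 24.7 CPM, all above the controls, with a difference of 2.2 ± 0.84 (edgeR, adjusted p = 0.48). Psmb8 had 9.78, 3.76 and 15 CPM and Psmb9 had 5.45, 2.43 and 6.09 CPM, both lowest in siRNA-labelled stroke 2, the library with the most B2m. Tapbp had 19, 28.5 and 24.7 CPM. Tap2 stayed inside the control range at 1.79, 1.33 and 0.953 CPM, with a difference of 0 ± 1.08. Nlrc5 had 14.1, 26.1 and 9.82 CPM, between the low and the high control libraries. The authors' deposited table had 3 members past a false discovery rate of 0.05 in this comparison.

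**Figure D3:**
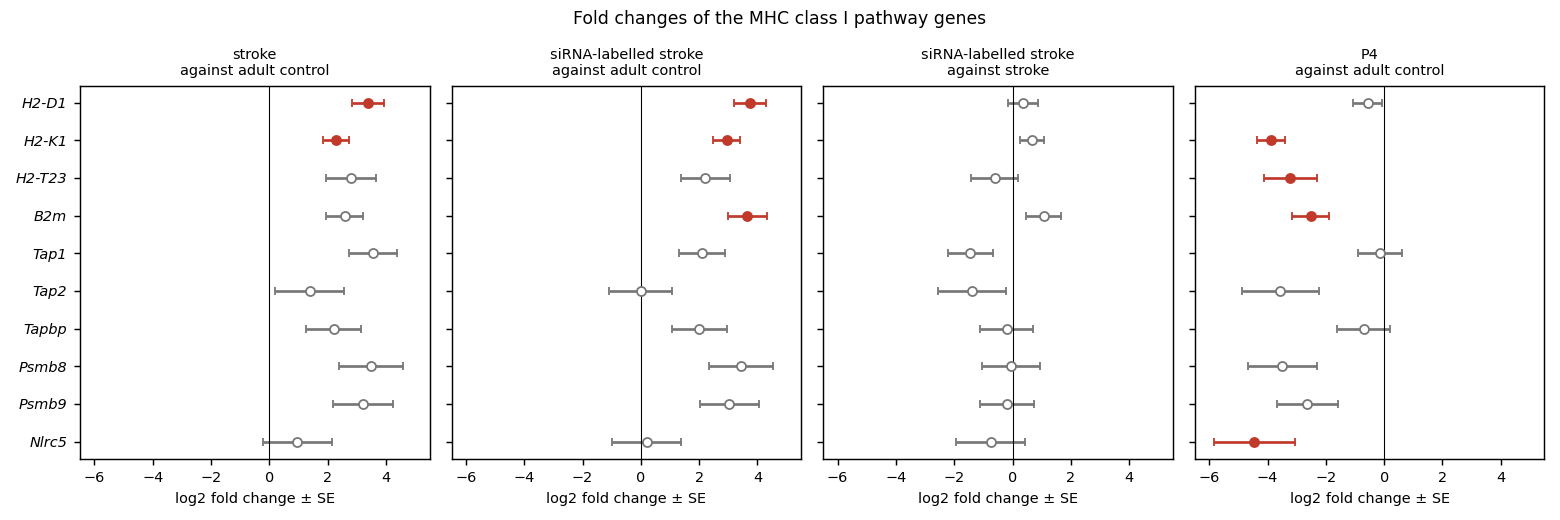
Log2 fold change with its approximate standard error for each member in 4 comparisons, filled where the adjusted p was under 0.05. Filled points number 2, 3, 0 and 4 from left to right, and the panels against adult control share those control libraries.

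Set directly against stroke, siRNA-labelled stroke gave no called member. None of the 10 reached an unadjusted p under 0.05, beside 7.37% of all genes tested. DESeq2 called 0 members, and edgeR called 1 gene of all tested (0.00558%). The median of the members was -0.19 beside 0.04 over all genes. The members were split. B2m (1.07 ± 0.6, edgeR, adjusted p = 0.727) and H2-K1 (0.66 ± 0.42, edgeR, adjusted p = 0.761) were higher in 3 of 3 siRNA-labelled libraries than in every stroke library, where 7.77% of all genes did the same. Tap1, at 4.08, 2.89 and 9.91 CPM, was lower than in every stroke library (-1.45 ± 0.77, edgeR, adjusted p = 0.702), and so was Tap2 (-1.38 ± 1.17, edgeR, adjusted p = 0.817), where 8.11% of all genes did the same. The standard errors, up to 1.18 for Nlrc5, leave room for sizeable differences either way.

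MHC class II and myeloid marker shares are given beside that comparison, in which edgeR called 0 genes of these lists. Class II genes together took 0.00103 to 0.002% of counts in stroke and 0.00608 to 0.0149% in siRNA-labelled stroke. Cd74, the invariant chain of class II, had 9.8, 0.961 and 1.9 CPM in stroke and 40, 85.5 and 54.6 CPM in siRNA-labelled stroke, without overlap (3.83 ± 0.89, edgeR, adjusted p = 0.445). Microglia and macrophage markers took 0.223 to 0.442% of counts in siRNA-labelled stroke, above the 0.0479 to 0.16% in stroke, and 10 of 16 of these markers were higher without overlap. Monocyte and neutrophil markers, again mostly Lyz2, overlapped, at 0.0256 to 0.0488% in stroke and 0.0283 to 0.138% in siRNA-labelled stroke. B2m and the microglia share were both highest in siRNA-labelled stroke 2, and the part of these cells in the class I values was not tested. Of the class I receptors, Lilrb4 had the smallest p (2.77 ± 0.89, edgeR, adjusted p = 0.568). Of the transcription factors it was Stat2, lower in 3 of 3 siRNA-labelled libraries (-1.4 ± 0.35, edgeR, adjusted p = 0.445).

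P4 held the smallest share of class I RNA, with 0.00534 to 0.0123% of counts on the 10 members, beside 0.0313 to 0.0426% in adult control, 0.198 to 0.252% in stroke and 0.29 to 0.589% in siRNA-labelled stroke. B2m held most of the members' counts in every adult control, stroke and siRNA-labelled stroke library, so these shares mainly follow B2m. In P4 4, H2-D1 had 1302 counts and B2m 906. H2-K1 had 1.93, 3.03 and 1.71 CPM in P4, below every adult control library, and fell by 3.89 ± 0.48 on the log2 scale against adult control (edgeR, adjusted p = 4.61e-05). B2m had 17, 22.6 and 115 CPM, with P4 6 well above the other two but still below every control, and fell by 2.52 ± 0.63 (edgeR, adjusted p = 0.012). H2-T23 had 0.281, 0.416 and 0.57 CPM, overlapping adult control 1, and fell by 3.22 ± 0.9 (edgeR, adjusted p = 0.023). Its call was lost without adult control 2 (-1.72, edgeR, adjusted p = 0.173), P4 4 (edgeR, adjusted p = 0.102) or P4 5 (edgeR, adjusted p = 0.0813), and that of B2m without P4 5 (edgeR, adjusted p = 0.0503). Nlrc5 had 0.299, 0.317 and 1.46 CPM and was called lower (-4.46 ± 1.39, edgeR, adjusted p = 0.0383), a call that rested on adult control 3. Without that library the difference was -0.27 (edgeR, adjusted p = 0.884), and it also missed without P4 4 (edgeR, adjusted p = 0.139) or P4 5 (edgeR, adjusted p = 0.135). These 4 of 10 were called lower where 10.4% of all genes tested were, and 3 of 10 did not overlap, beside 16.0% of all genes.

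Among the remaining members, H2-D1 had 24.4, 18.3 and 12.1 CPM in P4, inside the range of the controls (-0.56 ± 0.5, edgeR, adjusted p = 0.504). Tap1 (0.88, 0.793 and 1.96 CPM) and Tapbp (3.8, 4.28 and 2.92 CPM) also lay inside the control range. Tap2 had 1, 2 and 5 counts in P4 4, 5 and 6, Psmb8 had 1, 3 and 3, and Psmb9 had 4, 6 and 1. Psmb8 (-3.49 ± 1.19, edgeR, adjusted p = 0.0582) and Tap2 (-3.56 ± 1.31, edgeR, adjusted p = 0.0794) missed the threshold, as did Psmb9 (-2.63 ± 1.03, edgeR, adjusted p = 0.0998). The median of the members was -2.92 beside -0.16 over all genes. The authors' deposited table had 6 members lower in P4 past a false discovery rate of 0.05. Microglia and macrophage markers took 0.00247 to 0.00439% of counts in P4, and 15 of 16 were called lower than in adult control, as were 12 of 12 oligodendrocyte markers; their part in the class I values was not tested.

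Around the pathway, P4 was lower than adult control in 3 of 9 further heavy chains and relatives, Hfe, H2-Q4 and Mr1, and in 5 of 16 transcription factors. Irf8 fell by 4.2 ± 0.82 (edgeR, adjusted p = 0.00222) and Irf2 by 2.91 ± 0.63 (edgeR, adjusted p = 0.00493). Of 12 loading and trimming genes, Lnpep and Erap1, aminopeptidases that trim peptides, were lower. In the other direction Psme1 was higher (2.08 ± 0.53, edgeR, adjusted p = 0.0134). The interferon gamma receptor genes went opposite ways, with Ifngr1 lower (-2.6 ± 0.5, edgeR, adjusted p = 0.00201) and Ifngr2 higher (2.32 ± 0.45, edgeR, adjusted p = 0.00228). H2-Ob and H2-Ab1 were lower among 8 class II genes, and Lilrb4 among 6 tested class I receptors. None of 9 constitutive proteasome subunits was called by edgeR or reached an unadjusted p under 0.05, and Psma3 had the smallest p.

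Against P4, 10 of 10 members rose in stroke, where 10.8% of all genes tested were called higher, and 7 of 10 in siRNA-labelled stroke, beside 11.6%. In the same comparisons 16 of 16 microglia and macrophage markers and 12 of 12 oligodendrocyte markers were called higher, with median log2 fold changes of 5.27 and 8.63 in stroke and 7.04 and 9.16 in siRNA-labelled stroke; the part of these cells in the class I values was not tested. The sizes in stroke ran from 2.91 ± 0.97 for Tapbp to 6.98 ± 1.34 for Psmb8, with 6.17 ± 0.53 for H2-K1 (edgeR, adjusted p = 1.34e-06) and 3.94 ± 0.56 for H2-D1 (edgeR, adjusted p = 0.000137). In siRNA-labelled stroke the 3 not called were Tapbp, Tap1 and Tap2, each higher in 3 of 3 libraries than in every P4 library, beside 20.7% of all genes. Leaving out a library, the Tapbp call in stroke was lost in 6 of 6 fits (edgeR, adjusted p = 0.0929 to 0.132), Tap2 was called in 3 of 6 (not without stroke 4, P4 4 or P4 5) and Nlrc5 in 4 of 6 (not without P4 4 or P4 5). In siRNA-labelled stroke Nlrc5 was called in 3 of 6 (not without siRNA-labelled stroke 2, P4 4 or P4 5). With Rn45s class as a term, 6 of 10 were called in stroke against P4, since Tap1, Tap2, Tapbp and Psmb9 missed. The authors' deposited table had all 10 past a false discovery rate of 0.05 in both.

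**Figure D4:**
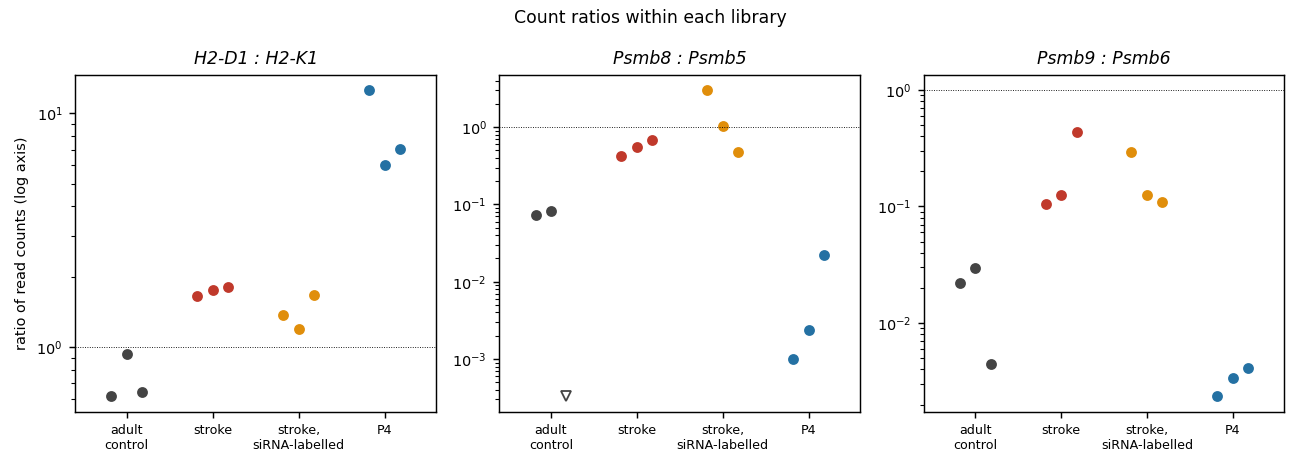
Count ratios within each library on a log axis, with 1 point per library; the open triangle is a library with 0 counts of Psmb8, placed at the foot of the axis. H2-D1 to H2-K1 is below 1 in all 3 adult control libraries, 1.2 to 1.8 in the 6 stroke and siRNA-labelled stroke libraries, and 6.04 to 12.6 in P4.

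The balance of the classical heavy chains differed between groups. Because both counts come from the same library, their ratio needs no scaling between libraries. H2-D1 counts were 0.616, 0.937 and 0.642 times those of H2-K1 in adult control, 1.66, 1.76 and 1.8 times in stroke, 1.37, 1.2 and 1.67 times in siRNA-labelled stroke, and 12.6, 6.04 and 7.07 times in P4. Adult control was below every other group and P4 above, without overlap. An exact two-sided permutation test of 3 against 3 libraries cannot give a p below 0.1, and no other test of the ratio was run. The genes are close relatives, and 1.77% of the 69-base windows of H2-D1 transcripts, the length of a read, also occur in H2-K1, and 2.32% the other way. How the authors assigned such reads is not given in the sources used here, and the same doubt holds for other members. The windows found in any other gene came to 18.3% for Tapbp, 15.7% for H2-T23, 11.2% for Psmb9, 9.84% for Tap2, 8.11% for H2-D1 (mostly H2-Q1), 5.2% for Tap1, 3.59% for Psmb8 and 2.32% for H2-K1. They were 0 for B2m and Nlrc5. The windows of Psmb9 are shared with its neighbour Tap1.

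Over the 12 libraries, the members' log2 CPM values varied together, as a description only, since the libraries fall into groups and share batch and depth. Pearson's r between members ran from 0.12 for Tapbp with Nlrc5 to 0.97 for Psmb8 with Psmb9, which lie near each other on chromosome 17. The 5 genes outside the members whose pattern was most like the members' mean, among 10968 with at least 5 CPM, were C4b (r = 0.983), Dtx3l (0.981), Serpina3n (0.977), Nkain1 (0.975) and Vkorc1 (0.972). C4b, a complement component encoded in the MHC, had 5.83, 12.9 and 8.44 CPM in adult control and 924, 865 and 625 CPM in stroke. In siRNA-labelled stroke it had 214, 286 and 798 CPM, and in P4 0.374, 0.456 and 1.58 CPM. From adult control to stroke C4b rose by 6.47 ± 0.67 (edgeR, adjusted p = 0.000415), beside at most 3.55 among the members. Nkain1, a membrane protein gene, had 135, 228 and 143 CPM in adult control and 399, 406 and 321 CPM in stroke.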

How the data were processed

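Per the labels, total RNA of 12 libraries (RNA-Microprep kit) went through the Ovation RNA-seq System v2 and was read as 69 bp pairs. The submitters' processing notes name CASAVA 1.8.2, edgeR and mm10. Aligner, counter, annotation and strandedness were not given in the sources used here. In the deposited table are raw read counts, which were analysed here, and the authors' log2 fold changes, p-values and false discovery rates per comparison, which are quoted only where named as deposited. Its 30 further per-library columns were not used. The first P4 column is named P3 and was matched by its replicate number.

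In R 4.3.3, filterByExpr kept 17909 genes. All 12 libraries were fitted in 1 model with TMM factors by the quasi-likelihood test of edgeR 4.0.16, which was tested on simulated data. Genes were called at a p under 0.05 after Benjamini-Hochberg adjustment across the whole tested set. CPM are shown per library or as mean ± SD. The standard error is the absolute log2 fold change over the square root of F. Alternatives were DESeq2 1.42.0, its size factors, no filter, Rn45s class as a term, separate fits of 2 groups, a replicate block, and each library left out. Levels per kilobase use the exon length. Likeness is Pearson's r with the mean z-scored log2 CPM (prior count 2) of the members. Counting floors are 3 counts and cover counting error only.

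All 10 members are named. Of other lists, the called genes, at most 3 by p, or the 1 with the smallest p are named. One item is not reported here. Members and lists were chosen with earlier results of these data known.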

Additional observations from a re-analysis of the deposited data

How the results depend on the processing

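Of 678 member values under alternatives, 579 kept direction and side of the threshold, 58 lost a call, 23 gained one and 18 changed sign. Members called in stroke against adult control, 2 above, were 7 with DESeq2, 1 with Rn45s class as a term, 1 in a fit of these groups alone, and 0 to 4 leaving out a library. In siRNA-labelled stroke against adult control, 3 above, they were 5 with DESeq2, 0 in a fit of these groups alone, and 0 to 2 leaving out a library. In P4 against adult control, 4 above, they were 7 with DESeq2, 1 in a fit of these groups alone, and 1 to 5 leaving out a library. The last count was 1 without P4 5 and 2 without P4 4. Stroke against P4 gave 6 with the class term and 7 to 9 leaving out a library, and siRNA-labelled stroke against P4 gave 6 to 8 leaving out a library. The replicate number as a block gave 0 members in siRNA-labelled stroke against adult control and 10 in stroke against P4. Whether the numbers pair the libraries was not settled, with 3 libraries a group. Same-numbered deviations correlated at 0.06, -0.19 and -0.34 in the first and 0.16, 0.01 and 0.15 in the second. Differently numbered ones ran from -0.32 to 0.48 in the first and from -0.18 to 0.15 in the second. The causes of these changes were not tested. The size factors of DESeq2 moved the median of all genes by -0.101 in stroke against adult control and by -0.125 in stroke against P4, and turned no member's sign.

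Over all genes, calls in stroke against adult control were 126, 1293 with DESeq2, 41 with the class term, 43 in a fit of these groups alone and 31 to 548 leaving out a library. In siRNA-labelled stroke against adult control they were 21, 333 with DESeq2, 40 with the class term or no filter, 13 with DESeq2's size factors, and 0 with the block or in a fit of these groups alone. In siRNA-labelled stroke against stroke they were 1, 161 with DESeq2, 88 in a fit of these groups alone, 2 with no filter and 0 with the class term or the other size factors. In P4 against adult control they were 3001, 4540 with DESeq2 and 1639 in a fit of these groups alone, and in stroke against P4 they were 3359 and 2049 with the class term.

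The 18 sign changes were all in values that had not been called. In siRNA-labelled stroke against stroke, the class term gave log2 fold changes of 0.59 for H2-T23, 0.42 for Tapbp, 0.95 for Psmb8 and 0.78 for Psmb9. Leaving out a library, Psmb8 ran from -0.56 to 0.31 (0.1 without stroke 4, 0.31 without siRNA-labelled stroke 2), and Psmb9 from -0.44 to 0.15 (0.15 without stroke 6, 0.11 without siRNA-labelled stroke 2). In siRNA-labelled stroke against adult control, Nlrc5 was -0.37 without adult control 1, -0.34 without adult control 2, -0.26 without siRNA-labelled stroke 2 and 4.43 without adult control 3. In P4 against adult control, the class term gave 0.24 for H2-D1 and 0.56 for Tap1. Without adult control 2, H2-D1 was 0.52, Tap1 0.57 and Tapbp 0.02, the highest of ranges that began at -0.93, -0.64 and -1.26. Tap1 was 0.05 without P4 4 and 0.1 without P4 5. Members at a few counts per library in P4 limit what these values can show.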
